A study of Mus musculus with 29 samples.

Results

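The high mobility group (HMG) genes encode abundant non-histone proteins of chromatin, and their transcripts were followed here in astrocytes forced towards neurons. Members were all rows of the expression table with the symbols Hmga1, Hmga2, Hmgb1, Hmgb2, Hmgb3, Hmgn1, Hmgn2, Hmgn3 and Hmgn5, which are 9 of 25239 genes, and all 9 passed the filter on low values. The study transduced primary astrocytes of wild-type C57BL/6J mice with MLV-derived retroviruses in which a CAG promoter drives a cDNA and a fluorescent reporter. The bFGF culture received bFGF at 10 ng/ml over 10 days in vitro and gave 3 Neurog2+Hmgb2, 4 Neurog2, 4 Hmgb2 and 3 Control libraries. The EGF+bFGF culture, grown with EGF in addition, gave 3 Neurog2+Hmgb2, 3 Neurog2, 4 Hmgb2 and 5 Control libraries. Control cells carried a virus with the reporter alone, so that all 8 groups were transduced, and all were grown in serum and sorted by fluorescence 48 h after transduction. The mice were 5 to 6 days old by the growth protocol. The source is labelled as grey matter of the cortex, whereas the methods name white matter. Nothing in the labels states that the libraries of a group came from separate cultures, so the tests measure the spread between these libraries, which may in part be technical.

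HMG proteins fall into 3 families. HMGB proteins carry a pair of HMG boxes that bend DNA, HMGN proteins bind nucleosomes and compete with linker histone H1, and HMGA proteins bind the minor groove of AT-rich DNA through AT-hooks. HMGB2 is known as a protein of cycling progenitors, HMGA2 of fetal and early neural stem cells, in which let-7 microRNAs limit it, whereas HMGN3 is known from differentiated cells, among them glial cells of the mouse brain.

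The values are rlog values, which are log2 counts scaled between libraries, with those of weakly counted genes pulled towards the mean of the gene. A difference of 1 is therefore close to 2-fold for a well expressed gene and understates the change of a weak one, and levels of different genes were not compared because the values are not scaled by length. Libraries correlated at 0.951 to 0.997 within groups across genes. Neurog2 was at 12.36 to 14.29 in the 13 libraries with the Neurog2 virus and at 7.74 to 8.22 in the 8 Control libraries. The 8 libraries labelled Hmgb2, which should carry no Neurog2 virus, had Neurog2 at 9.35 to 11.47, above every Control library, and the difference of the means was 2.43. Results that rest on these libraries are therefore given for libraries labelled Hmgb2. Astrocyte markers were high throughout, with Gfap at 13.04 to 16.24. In 7 libraries the mean of 12 astrocyte markers was 9.94 to 10.51, apart from the other 22 at 10.86 to 11.84. They were Neurog2+Hmgb2 replicate 1, Neurog2 replicate 1 and Hmgb2 replicate 1 of the bFGF culture, and Neurog2+Hmgb2 replicate 2, Hmgb2 replicate 2 and Control replicates 2 and 3 of the EGF+bFGF culture. Each main result is also given without these 7 libraries, a setting chosen after the data were seen. In bulk samples, fewer cells of a type and less RNA per cell cannot be told apart.

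The promoters of the members show what the genes share apart from their expression. RefSeq promoter sequences (GRCm38.p6) were matched for 8 of the 9 members, and the 250 bases before the start were searched on both strands. Hmga1 and Hmgb1 had 2 starts each. A motif was counted for a gene if it occurred at either start, whereas the shares over all mouse promoters are per promoter. The CCAAT box, read as CCAAT or ATTGG, occurred in 5 of the 8 (Hmgb1, Hmgb2, Hmgb3, Hmgn1 and Hmgn5), against 33.9% of 32851 mouse promoters of the same length. It is the binding motif of the factor NF-Y and is known from promoters of cell cycle genes. Hmgb2 held 4 matches, with those nearest to the start beginning 73 and 11 bases before it. The cell cycle homology element, searched as TTTGAA or TTCGAA, occurred in Hmgb2 and Hmgb3 (2 of 8, against 17.1% of promoters), and in Hmgb2 1 match began 30 bases before the start. An E-box of the sequence CAGCTG, a motif of basic helix-loop-helix factors, was present in Hmga1, Hmgb1 and Hmgb3 (3 of 8, against 4271 of 32851 promoters). The E-box CAGATG, the kind that NEUROG2 is known to prefer, was found in 0 of the 8 members, against 14.4% of promoters, and the TATA box TATAAA in 0 of 8, against 12.4%. The E2F motifs TTTGGCGC, TTTCGCGC and TTTCCCGC were found in 0 of 8, against 1.53%. The 150 bases up to the start are shown for the 5 genes with a CCAAT box, which is in capitals, and for Hmga2, which has none in this window. Hmgb1 is given at the first of its starts, and at the other it had neither a CCAAT box nor CAGCTG.
Hmgb2, chr8:57511693-57511842, forward strand: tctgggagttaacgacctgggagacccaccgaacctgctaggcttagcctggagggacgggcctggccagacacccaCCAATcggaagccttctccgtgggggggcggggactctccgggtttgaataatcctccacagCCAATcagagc
Hmgb1, chr5:149053058-149053207, reverse strand: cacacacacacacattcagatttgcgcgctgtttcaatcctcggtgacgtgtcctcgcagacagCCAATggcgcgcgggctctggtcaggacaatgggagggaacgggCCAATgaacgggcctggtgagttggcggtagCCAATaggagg
Hmgb3, chrX:71555767-71555916, forward strand: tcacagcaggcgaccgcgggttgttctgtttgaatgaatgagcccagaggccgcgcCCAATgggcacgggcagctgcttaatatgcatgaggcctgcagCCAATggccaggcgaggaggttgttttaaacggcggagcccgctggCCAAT
Hmgn1, chr16:96127726-96127875, reverse strand: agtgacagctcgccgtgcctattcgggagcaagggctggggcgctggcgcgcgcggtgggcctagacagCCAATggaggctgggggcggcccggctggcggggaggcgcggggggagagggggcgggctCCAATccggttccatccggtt
Hmgn5, chrX:109013381-109013530, reverse strand: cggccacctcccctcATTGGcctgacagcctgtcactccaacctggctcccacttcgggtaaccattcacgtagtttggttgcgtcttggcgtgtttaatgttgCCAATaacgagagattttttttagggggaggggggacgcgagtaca
Hmga2, chr10:120476470-120476619, reverse strand: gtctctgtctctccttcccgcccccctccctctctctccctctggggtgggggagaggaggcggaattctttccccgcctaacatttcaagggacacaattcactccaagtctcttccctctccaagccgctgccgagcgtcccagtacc
The CCAAT match nearest to the start began 5 (Hmgb3) to 46 bases (Hmgn5) before it in these 5 genes. A match of letters is a description and does not show that a factor binds there.

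Hmgb2 was the member with the clearest difference between groups, because its own virus adds reads to its row. The gene (ENSMUSG00000054717.7) lies on chromosome 8 from 57511907 to 57515999 on the forward strand of GRCm38, and no other annotated gene overlaps it. In the bFGF culture, Neurog2+Hmgb2 libraries had Hmgb2 rlog values of 12.27, 12.22 and 12.81, and the libraries labelled Hmgb2 had 11.48, 11.77, 11.87 and 11.72. Neurog2 libraries had 10.65, 10.09, 9.90 and 10.49 and Control libraries 9.34, 9.91 and 9.44. In the EGF+bFGF culture the values were 12.37, 11.71 and 13.32 with Neurog2+Hmgb2, 12.61, 11.89, 12.44 and 12.25 with Hmgb2, 10.49, 10.89 and 10.49 with Neurog2, and 10.10, 10.30, 10.19, 9.57 and 10.25 with Control. The 14 libraries with the Hmgb2 virus lay at 11.48 to 13.32 and the 15 without it at 9.34 to 10.89, with no overlap. These values sum the endogenous and the viral transcript and serve as a check of transduction. The differences from Control were 2.87 ± 0.29 (SE) for Neurog2+Hmgb2 and 2.15 ± 0.27 for Hmgb2 in the bFGF culture, and 2.38 ± 0.26 and 2.22 ± 0.24 in the EGF+bFGF culture, all with adjusted p at or below 0.000706. Against Neurog2 alone, Neurog2+Hmgb2 differed by 2.15 ± 0.27 in the bFGF culture (adjusted p = 0.000708) and by 1.84 ± 0.29 in the EGF+bFGF culture (adjusted p = 0.0265). The EGF+bFGF difference lost its call when Neurog2 replicate 1, 2 or 3 or Neurog2+Hmgb2 replicate 1 or 3 was left out, with adjusted p of 0.326, 0.0624, 0.332, 0.143 and 0.362 and differences of 1.42 to 1.98, although the groups did not overlap.

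The endogenous Hmgb2 transcript can be read only in the 15 libraries without its virus. The 7 Neurog2 libraries had 9.90 to 10.89 (median 10.49) and the 8 Control libraries 9.34 to 10.30 (median 10.01). In the EGF+bFGF culture all 3 Neurog2 libraries lay above all 5 Control libraries, but the difference of 0.54 ± 0.26 was not called by limma (adjusted p = 0.402). In the bFGF culture 3 of 4 Neurog2 libraries lay above every Control library, and the difference of 0.72 ± 0.27 did not pass either (adjusted p = 0.41). Averaged over the cultures, Hmgb2 was higher with Neurog2 by 0.63 ± 0.19, which was close to the threshold (adjusted p = 0.0589, a contrast chosen after the data were seen). Over all groups, those with the Hmgb2 virus included, the difference was 0.54 ± 0.14 and passed (adjusted p = 0.00831), and it was 0.60 ± 0.13 without the 7 libraries low in astrocyte markers (adjusted p = 0.00406).

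**Figure D1:**
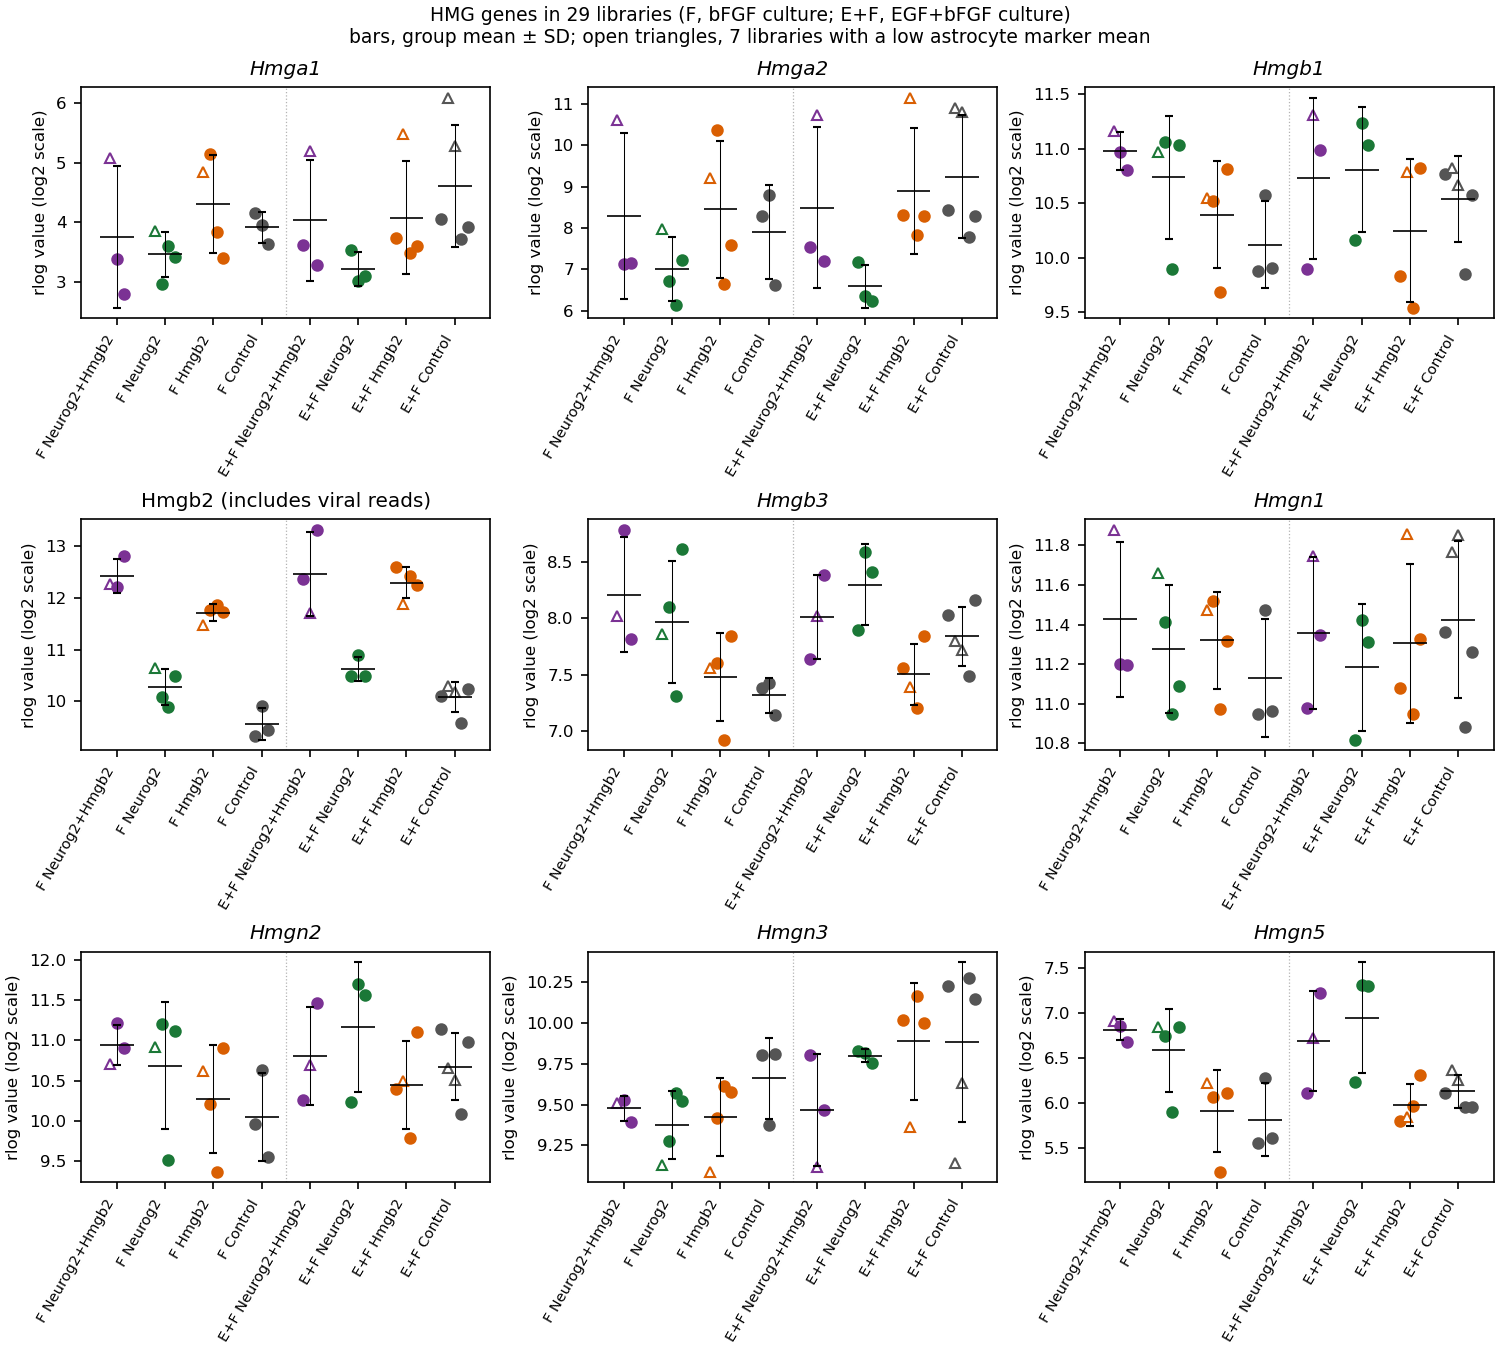
rlog values of the 9 HMG genes (vertical axes, log2 scale, a different range for each gene) in the 29 libraries, by virus in the bFGF culture (left of the dotted line) and the EGF+bFGF culture (right of it). Points are libraries, horizontal bars are group means with SD, and open triangles are the 7 libraries low in astrocyte markers. Hmgb2 is at 11.48 to 13.32 in the 14 libraries with its virus and at 9.34 to 10.89 in the other 15. Most of the open triangles are among the highest points of Hmga2, and the exception is bFGF Neurog2 replicate 1 at 7.97.

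The effect of Neurog2 on the other members was asked as the mean of the 4 comparisons with and without its virus, 1 in each culture for cells with and for cells without the Hmgb2 virus. Hmgn5 and Hmgb3 were higher with Neurog2, 2 of the 8 members other than Hmgb2, and 0 were lower. In the same comparison 15.3% of 15719 tested genes were called, 8.54% of them higher and 6.74% lower, and with only 8 members no more is read from their count. The median difference of the 8 was 0.25, against 0.01 over all tested genes. The libraries without the Neurog2 virus include those labelled Hmgb2, in which Neurog2 was above Control.

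Hmgn5, a nucleosome-binding HMGN protein with a long acidic tail, rose most. In the bFGF culture its rlog values were 6.91, 6.86 and 6.68 with Neurog2+Hmgb2, 6.85, 6.75, 5.90 and 6.84 with Neurog2, 6.22, 6.07, 5.24 and 6.11 with Hmgb2, and 5.56, 6.28 and 5.62 with Control. In the EGF+bFGF culture they were 6.11, 6.72 and 7.22 with Neurog2+Hmgb2, 6.24, 7.31 and 7.30 with Neurog2, 5.81, 5.84, 5.96 and 6.31 with Hmgb2, and 6.11, 6.37, 6.26, 5.95 and 5.96 with Control. Thus 10 of the 13 libraries with the Neurog2 virus lay above all 16 without it, and the exceptions were bFGF Neurog2 replicate 3 and replicate 1 of both Neurog2 groups of the EGF+bFGF culture. The mean difference was 0.80 ± 0.15 (adjusted p = 0.000513). It was 0.79 ± 0.20 in the groups without the Hmgb2 virus (adjusted p = 0.0263, with 4.17% of all genes called) and 0.81 ± 0.19 without the 7 libraries (adjusted p = 0.00559). In the single comparisons of Neurog2 with Control it was 0.77 ± 0.30 in the bFGF culture and 0.82 ± 0.28 in the EGF+bFGF culture, neither past the test (adjusted p = 0.429 and 0.177). Without EGF+bFGF Neurog2 replicate 1 the EGF+bFGF difference was 1.17 and passed (adjusted p = 0.0409, with 1.54% of all genes called). Hmgn5 lies on the X chromosome from 109004534 to 109013404, and an annotated small nuclear RNA overlaps it.

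Hmgb3, an HMGB protein of embryonic and stem cells, rose less. Hmgb3 in the bFGF culture was at 8.02, 8.79 and 7.82 with Neurog2+Hmgb2, 7.86, 8.10, 7.31 and 8.61 with Neurog2, 7.56, 7.60, 6.92 and 7.84 with Hmgb2, and 7.38, 7.43 and 7.14 with Control. In the EGF+bFGF culture it was at 7.64, 8.02 and 8.39 with Neurog2+Hmgb2, 7.89, 8.59 and 8.42 with Neurog2, 7.56, 7.39, 7.21 and 7.85 with Hmgb2, and 8.03, 7.80, 7.72, 7.49 and 8.16 with Control. The groups overlapped in the EGF+bFGF culture, where 3 of 6 libraries with the Neurog2 virus lay above all 9 without it, and in the bFGF culture 5 of 7 did. The mean difference of Hmgb3 was 0.59 ± 0.14 (adjusted p = 0.00466). It held without the 7 libraries (0.60 ± 0.18, adjusted p = 0.0253) but not in the groups without the Hmgb2 virus alone (0.56 ± 0.19, adjusted p = 0.109). Hmgb3 lies on the X chromosome from 71555918 to 71560676 on the forward strand.

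Hmgb1, the most widely expressed HMGB protein, and Hmgn2, a nucleosome-binding protein of most cells, had differences of like size that did not pass. Hmgb1 was at 9.89 to 11.31 (median 10.99) in the 13 libraries with the Neurog2 virus and at 9.54 to 10.83 (median 10.56) in the 16 without it, a mean difference of 0.49 ± 0.19 (adjusted p = 0.0801). Hmgn2 was at 9.52 to 11.70 (median 10.92) with the Neurog2 virus and 9.37 to 11.14 (median 10.50) without it, a mean difference of 0.54 ± 0.21 (adjusted p = 0.0924). Both passed when EGF+bFGF Neurog2 replicate 1 was left out (adjusted p = 0.0391 for Hmgb1 and 0.0326 for Hmgn2) or bFGF Neurog2 replicate 3 (0.0318 and 0.0261), so that 4 of the 8 members were then called, against 16.5% and 17.6% of all genes in these settings. Hmgb1 alone also passed without EGF+bFGF Neurog2+Hmgb2 replicate 1 (adjusted p = 0.026, with 16.8% of all genes called). The Hmgb1 row is uncertain, since its gene overlaps the gene Uspl1 on the other strand and an annotated pseudogene, and the library kit does not keep the strand.

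Hmga1 and Hmga2, the AT-hook proteins, were lower on average with Neurog2, by 0.61 and 1.03 on the log2 scale. With SE of 0.30 and 0.52 these differences did not pass (adjusted p = 0.174 and 0.192). Without the 7 libraries low in astrocyte markers the differences were -0.62 ± 0.17 for Hmga1 (adjusted p = 0.0184) and -1.16 ± 0.36 for Hmga2 (adjusted p = 0.0309), and both were called lower. Hmgn3 was then also called, with -0.28 ± 0.06 (adjusted p = 0.00504), against -0.19 ± 0.11 in all libraries (adjusted p = 0.291). The 7 libraries were chosen after the data were seen, by a marker mean related to these genes within groups. Its r was -0.83 with Hmga1, -0.82 with Hmga2 and 0.85 with Hmgn3. The calls of these genes are therefore not independent of the choice of libraries. Thus 5 of the 8 members were called in the 22 libraries, Hmgb3 and Hmgn5 higher and Hmga1, Hmga2 and Hmgn3 lower, where 21.6% of all genes were called, against 15.3% in all libraries. With 8 members no more is read from this count. Hmgn1 differed by 0.02 ± 0.13 with Neurog2. The Hmga1 row is uncertain as well, since its gene overlaps the protein-coding gene AI413582 and an annotated antisense gene. Both lie on the other strand, which the library kit does not keep apart. Hmga1 was also weak, at 2.80 to 6.09, and weak values are pulled towards the mean of the gene.

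**Figure D2:**
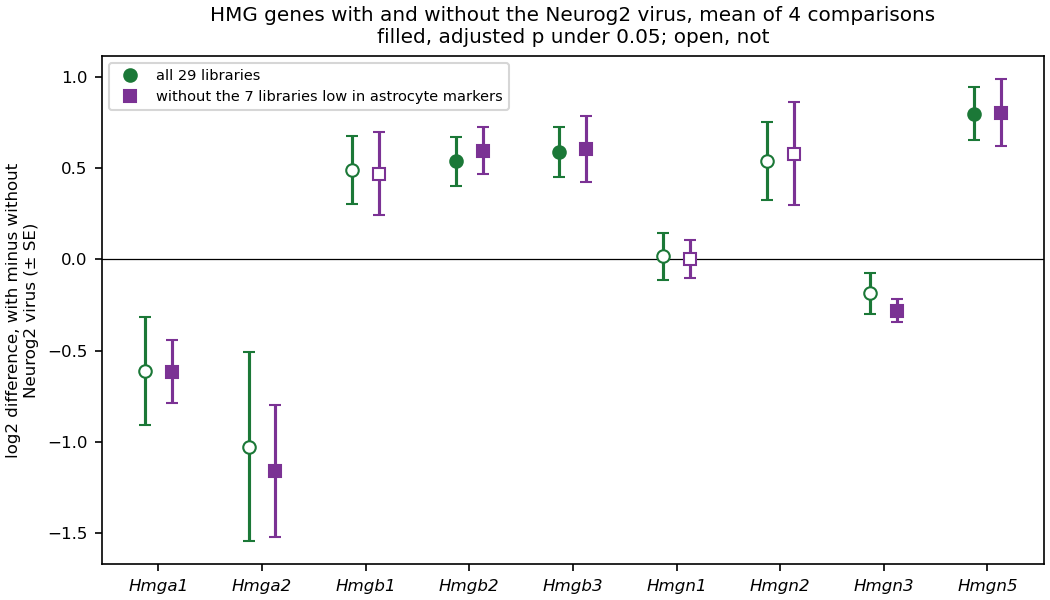
Log2 difference of each HMG gene between libraries with and without the Neurog2 virus (vertical axis, mean of 4 comparisons, bars are SE), in all 29 libraries (circles) and without the 7 libraries low in astrocyte markers (squares). Filled symbols have an adjusted p under 0.05. Hmgb2, Hmgb3 and Hmgn5 are above 0 and filled in both settings. The Hmgb2 point includes reads of its virus, and in the groups lacking that virus its difference was 0.63 (adjusted p = 0.0589). Hmga1, Hmga2 and Hmgn3 are below 0 and filled only in the squares. The 7 libraries were chosen after the data were seen, by a marker mean related to these genes within groups.

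Markers of other cells moved with the Neurog2 virus too. All 18 microglia markers had a difference above 0, with a median of 1.27, and 4 of them were called, where 15.3% of all genes were. An unadjusted p under 0.05 in limma was found for 17 of the 18, against 29.1% of all genes. The mean of the 18 was 4.65 to 8.97 (median 7.07) in the 13 libraries with the Neurog2 virus. It was 4.52 to 8.68 (median 5.65) in the 16 without it. The defining microglia markers Cx3cr1 and P2ry12 had values of 3.07 to 7.73 and 3.11 to 5.39, which do not show detection in every library, since weak values are pulled towards the mean of the gene. Within groups Hmgn5 and Hmgb3 rose and fell with the mean of the microglia markers (r = 0.64 and 0.51, Spearman rho 0.56 and 0.45, 29 libraries, a description). This was not particular to them. The r was 0.68 for Hmgb1, 0.61 for Hmgn1, 0.50 for Hmga2, 0.49 for Hmgn2 and 0.455 for Hmga1. It was 0.63 for endogenous Hmgb2 (15 libraries) and -0.64 for Hmgn3. The part of microglia in the rise of Hmgn5 and Hmgb3 was not tested. The mean of 10 neuron markers was 6.39 to 8.56 with the Neurog2 virus and 6.04 to 6.70 without it. Over both cultures together, other markers had lower medians with the Neurog2 virus, and the groups overlapped. The mean of 11 pericyte and smooth muscle markers was 5.17 to 6.06 (median 5.46) with it and 5.64 to 6.51 (median 5.82) without it, and that of the 9 endothelial markers 2.21 to 3.19 (median 2.34) and 2.38 to 3.505 (median 2.80). For astrocyte markers the median was 11.32 with the virus and 11.50 without it, and for oligodendrocyte lineage markers 6.84 and 6.89. The part of these marked cells in the differences of HMG genes was not tested.

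In the single comparisons with Control, 0 of the 8 members other than Hmgb2 passed the test. The shares of all genes called by limma were 1.48% for Neurog2+Hmgb2 and 0.35% for Neurog2 in the bFGF culture, and 1.98% and 1.58% in the EGF+bFGF culture. These comparisons share the Control libraries of their culture. In the bFGF culture 3 members had an unadjusted p under 0.05 with Neurog2+Hmgb2 (15.7% of all genes did) and 2 with Neurog2 (8.26%), and in the EGF+bFGF culture 0 did with Neurog2+Hmgb2 (13.3%) and 3 with Neurog2 (12.4%). With array weights, which give outlying libraries less weight, Hmgn5 was called in all 4 comparisons, with differences of 0.94 (bFGF Neurog2+Hmgb2), 0.92 (bFGF Neurog2), 0.77 (EGF+bFGF Neurog2+Hmgb2) and 1.15 (EGF+bFGF Neurog2). With these weights 17.9% of all genes were called for bFGF Neurog2+Hmgb2, 4.49% for bFGF Neurog2, 12.4% for EGF+bFGF Neurog2+Hmgb2 and 18% for EGF+bFGF Neurog2.

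The Hmgb2 virus was followed by no change of another HMG gene past the test. Over the mean of the 4 comparisons with and without this virus, 0 of 8 members were called by limma, 0 of 8 had an unadjusted p under 0.05, and 0.0127% of all genes were called. The 2 genes called were Hmgb2 itself, with 2.09 ± 0.14 (adjusted p = 1.03e-09), and Neurog2, with 1.45 ± 0.20 (adjusted p = 0.000983). Hmgb1 and Hmgb3, the closest relatives of Hmgb2, differed by 0.04 ± 0.19 and -0.05 ± 0.14, and Hmgn5 by -0.02 ± 0.15. The widest estimate was that of Hmga2, at 0.85 ± 0.52. Against Control, 0 of 8 members were called in the libraries labelled Hmgb2 of the bFGF culture, where 0.00636% of genes were, and of the EGF+bFGF culture, where 0.0127% were, and 0 of 8 had an unadjusted p under 0.05 in either. For Neurog2+Hmgb2 against Neurog2, 0 of 8 were called in each culture, with 0.00636% of genes called in each and 0 of 8 members at an unadjusted p under 0.05. In each of these comparisons within a culture Hmgb2 was the only gene called, except that Neurog2 also was in EGF+bFGF libraries labelled Hmgb2. The interaction of the viruses passed for none of the 9 members (0% of all genes were called). It was 0.01 ± 0.29 for Hmgn5, 0.07 ± 0.27 for Hmgb3 and -0.19 ± 0.27 for Hmgb2.

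The culture comparison asked whether growth without EGF changed HMG transcripts. In Control cells, Hmgb2 was at 9.34, 9.91 and 9.44 in the bFGF culture and at 10.10, 10.30, 10.19, 9.57 and 10.25 in the EGF+bFGF culture, and the groups overlapped in 1 bFGF and 1 EGF+bFGF library. The difference was -0.52 ± 0.26 and did not pass (adjusted p = 0.787). The other 8 members also had lower means in bFGF Control cells, by 0.22 (Hmgn3) to 1.34 (Hmga2) on the log2 scale, but 0 of 8 were called by limma, 0 of 8 had an unadjusted p under 0.05, and 0% of all genes were called. Over the mean of the 4 viruses all 9 differences were again below 0, and 0 were called, against 1.18% of all genes. Only Hmgb2 (-0.37 ± 0.14, adjusted p = 0.177) and Hmgn3 (-0.27 ± 0.11, adjusted p = 0.238) had an unadjusted p under 0.05. Without the 7 libraries low in astrocyte markers both passed, Hmgb2 with -0.46 ± 0.13 (adjusted p = 0.0423) and Hmgn3 with -0.40 ± 0.06 (adjusted p = 0.00274), where 7.23% of all genes did. The differences of Hmga1, Hmgb1 and Hmgn1 were then above 0 (0.0734, 0.0751 and 0.0275). The Hmgb2 differences over the 4 viruses include reads of its virus, so they do not read the endogenous transcript alone. Mean Hmgb2 in libraries labelled Hmgb2 was 11.71 in the bFGF and 12.30 in the EGF+bFGF culture, and with Neurog2+Hmgb2 12.43 and 12.47. Within groups, Hmgn3 was related to the marker mean by which the 7 libraries were chosen (r = 0.85). The response to Neurog2, to Neurog2+Hmgb2 and to Hmgb2 was compared between the cultures as an interaction, and none of the 9 members was called in any of the 3 (0% of all genes in each by limma, and 0 of 9 members had an unadjusted p under 0.05 in any). The largest of these terms was that of Hmga2 for Neurog2, at 1.76 ± 1.45.

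Hmga2 varied more within groups than any other member. Its pooled SD within groups was 1.46 on the log2 scale, followed by Hmga1 with 0.83 and Hmgn2 with 0.60, and the SD of Hmgn3 was the smallest with 0.31. Hmga2 in the bFGF culture was at 10.62, 7.12 and 7.15 with Neurog2+Hmgb2, 7.97, 6.72, 6.14 and 7.21 with Neurog2, 9.21, 10.38, 6.65 and 7.58 with Hmgb2, and 8.30, 8.79 and 6.63 with Control. In the EGF+bFGF culture it was at 7.53, 10.74 and 7.21 with Neurog2+Hmgb2, 7.18, 6.35 and 6.24 with Neurog2, 8.32, 11.15, 7.82 and 8.29 with Hmgb2, and 8.44, 10.89, 10.81, 7.78 and 8.30 with Control. Most of the high values lay in the libraries low in astrocyte markers. Hmga2 averaged 10.20 ± 1.17 (SD) in the 7 and 7.55 ± 1.00 in the other 22, and in 6 of the 7 it was above 9, which was so in 1 of the other 22, bFGF Hmgb2 replicate 2. No test is given for this split, which was set on the data. The 7 libraries also differed in other markers. The mean of 9 endothelial markers was 2.82 to 3.505 (median 3.44) in the 7 and 2.21 to 3.28 (median 2.52) in the 22. Of these markers Cldn5, Tie1 and Emcn were below 0 on the log2 scale in every library. Over all libraries Cdh5 was at 5.59 to 9.98, Esam at 4.70 to 9.80, Flt1 at 5.02 to 9.16 and Kdr at 3.89 to 5.74. Tek (1.68 to 3.03) and Pecam1 (1.23 to 2.28) were weak. The mean of 18 microglia markers was 5.25 to 8.68 (median 7.01) in the 7 and 4.52 to 8.97 (median 5.70) in the 22, and that of 10 oligodendrocyte lineage markers 6.15 to 6.89 (median 6.43) and 6.02 to 8.77 (median 6.96). The part of these cells in the level of Hmga2 was not tested. Hmga2 spans 120361275 to 120476469 on the reverse strand of chromosome 10, and 2 annotated antisense genes overlap it.

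Hmga1 and Hmgn1 shared this pattern and Hmgn3 had the opposite one. Hmga1 averaged 5.12 ± 0.68 in the 7 libraries and 3.61 ± 0.49 in the 22, and Hmgn1, a nucleosome-binding protein of proliferating cells, 11.75 ± 0.14 and 11.17 ± 0.22. Hmgn3 averaged 9.28 ± 0.22 in the 7 libraries and 9.74 ± 0.30 in the 22. Hmgb3 had about the same mean on either side, at 7.77 ± 0.23 in the 7 and 7.83 ± 0.52 in the 22 for Hmgb3. After removal of the group means, Hmga2 and Aqp4, the water channel of astrocyte endfeet, were opposed over 29 libraries (r = -0.87, rho = -0.79), and still within the 22 (r = -0.69). With Gfap the relation of Hmga2 was r = -0.78 (rho = -0.63) in all libraries and 0.01 within the 22, so it rests on the 7. With the mean of the 12 astrocyte markers it was r = -0.82 (rho = -0.70) in all libraries and -0.30 within the 22. Hmgn3 rose with Aqp4 (r = 0.86, rho = 0.84, and 0.69 within the 22). With the mean of the 12 markers its r was 0.85 (rho = 0.84, and 0.66 within the 22). With Gfap it was 0.76 (rho = 0.69), but 0.18 within the 22. These correlations are descriptions over libraries that share much of their variation, since 1 axis held 45.4% of the deviations of all genes from their group means.

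**Figure D3:**
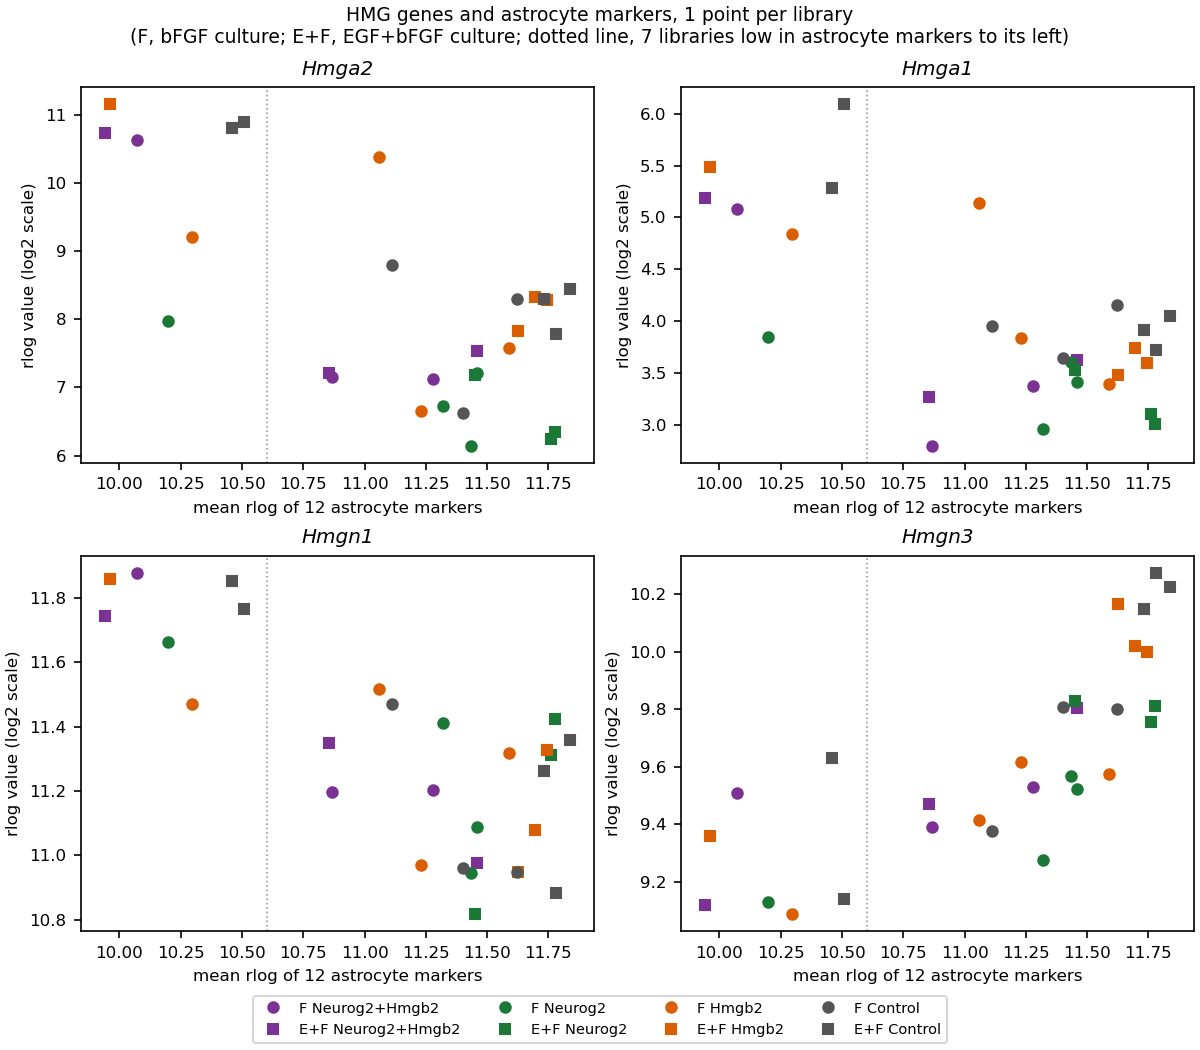
rlog values of Hmga2, Hmga1, Hmgn1 and Hmgn3 (vertical axes, log2 scale) against the mean rlog value of 12 astrocyte markers (horizontal axes), 1 point per library, coloured by virus, circles for the bFGF culture and squares for the EGF+bFGF culture. The dotted line, between 10.51 and 10.86, separates the 7 libraries low in astrocyte markers. Hmga2 averages 10.20 to its left and 7.55 to its right, and Hmgn3 averages 9.28 to its left and 9.74 to its right.

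Transcripts tied to HMGA2 in fetal cells were taken as a companion list. Of its 8 genes, 6 passed the filter on low values, and Lin28a and Lin28b, which block let-7, did not. The oncofetal RNA-binding proteins Igf2bp1 and Igf2bp3 were at 6.15 ± 0.89 and 7.87 ± 0.37 in the 7 libraries and at 5.00 ± 0.53 and 6.76 ± 0.51 in the 22. Within groups Hmga2 was related to Igf2bp1 with r = 0.79 (rho = 0.76) and to Igf2bp3 with r = 0.81 (rho = 0.79), and within the 22 libraries with r = 0.47 and 0.52. The related Igf2bp2 was at 9.37 ± 0.27 in the 7 and 8.72 ± 0.40 in the 22, and its r with Hmga2 was 0.53 (rho = 0.44) in all libraries and -0.15 within the 22. The row of the pseudogene Hmga2-ps1 was at 3.54 to 6.76 and followed Hmga2 (r = 0.87, rho = 0.81, and 0.47 within the 22). Reads may be split between a gene and a near-identical copy, so both rows are uncertain to that extent. Of the list, 0 of 6 genes were called by limma with Neurog2 over the mean of the 4 comparisons, and 0 had an unadjusted p under 0.05.

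The members formed 2 sets by their variation within groups. Hmga1 and Hmga2 were the closest pair of one set (r = 0.92, rho = 0.86, and 0.74 within the 22 libraries). Hmgb1, Hmgb3, Hmgn2 and Hmgn5 made up the other, with r between 0.69 (Hmgb1 and Hmgb3) and 0.86 (Hmgb3 and Hmgn2), and between 0.78 and 0.97 within the 22. Hmga2 was hardly related to Hmgb3 and Hmgn2 (r = 0.04 and 0.09). Hmgn1 stood between the sets, at r = 0.80 with both Hmga2 and Hmgb1. Within the 22 libraries its r with Hmgb1 was 0.89 and with Hmga2 0.42. Endogenous Hmgb2, in the 15 libraries without its virus, was closest to Hmgb1 (r = 0.79, rho = 0.70), and the r of Hmgn3 was below 0 with each of the others, with hardly any relation to Hmgb3 (-0.06) and the strongest to Hmgn1 (-0.78).

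**Figure D4:**
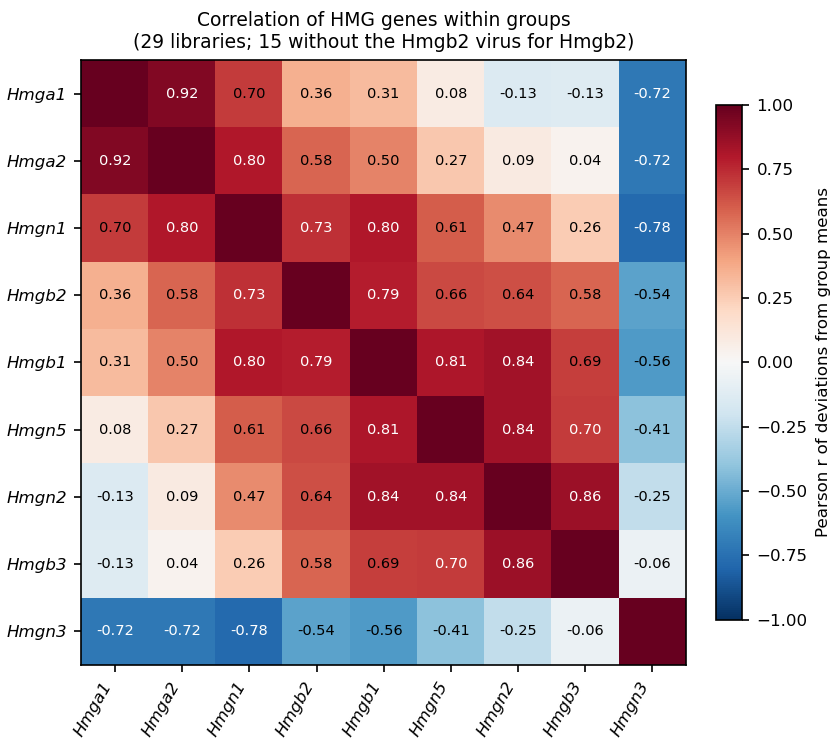
Pearson correlation between the HMG genes after removal of the group means (colour scale from -1 to 1, value in each cell), over 29 libraries, or over the 15 libraries without the Hmgb2 virus where Hmgb2 is 1 of the pair. Hmga1 and Hmga2 correlate at 0.92, Hmgb3 and Hmgn2 at 0.86, and the row of Hmgn3 is negative throughout.

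Proliferation genes were followed because HMGB2 marks cycling cells and retroviruses enter dividing cells. The mean of 32 proliferation genes, none of them a member, was 8.43 to 10.15 (median 9.20) in libraries with the Neurog2 virus and 8.16 to 9.99 (median 9.30) in those without it. These medians pool the cultures, which hold unequal numbers of libraries. In each culture this mean had a higher median with the virus (EGF+bFGF 9.34 against 9.32, bFGF 9.20 against 8.90). Within groups it rose with Hmgn1 (r = 0.89, rho = 0.87, both p = 1e-05), Hmga2 (r = 0.87, rho = 0.87, both p = 1e-05) and endogenous Hmgb2 (r = 0.83, p = 0.00082, rho = 0.78, p = 0.00393, 15 libraries) by a permutation test within groups, in which 1e-05 is the smallest p the draws can give. The same test gave r = 0.74 for Hmgb1 (p = 2e-05, rho = 0.69, p = 0.00035), 0.72 for Hmga1 (p = 0.00022, rho = 0.68, p = 0.00052) and 0.60 for Hmgn5 (p = 0.00286, rho = 0.57, p = 0.00499). Hmgn3 fell as proliferation genes rose (r = -0.73, permutation p = 7e-05, rho = -0.74, p = 0.00011). Such relations were common, since 62.1% of 15687 tested genes outside the list had a permutation p under 0.05 in the 29 libraries and 42.5% in the 15, so these relations are not particular to HMG genes. An r at least as large in size was found for 4.17% of all genes in the case of Hmgn1, 5.92% for Hmga2, 11.4% for endogenous Hmgb2, 23.1% for Hmgb1, 24.9% for Hmgn3, 25.9% for Hmga1 and 41.5% for Hmgn5. Adjusted over the 9 relations, the p of these 7 genes was at most 0.00368 for r and 0.00642 for rho, and without the 2 libraries farthest from the median their r was 0.50 to 0.90 in size. Hmgn2 had r = 0.50 (permutation p = 0.0184, adjusted 0.0207) but rho = 0.38 (p = 0.081, adjusted 0.0911). Hmgb3 did not pass (r = 0.37, permutation p = 0.0957, rho = 0.32, p = 0.159, adjusted to the same values). Within the 22 libraries the order changed, with r = 0.75 for Hmgn2 and 0.72 for Hmgb3, and r = 0.35 for Hmga1, so the relation of Hmga1 rests largely on the 7 libraries.

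**Figure D5:**
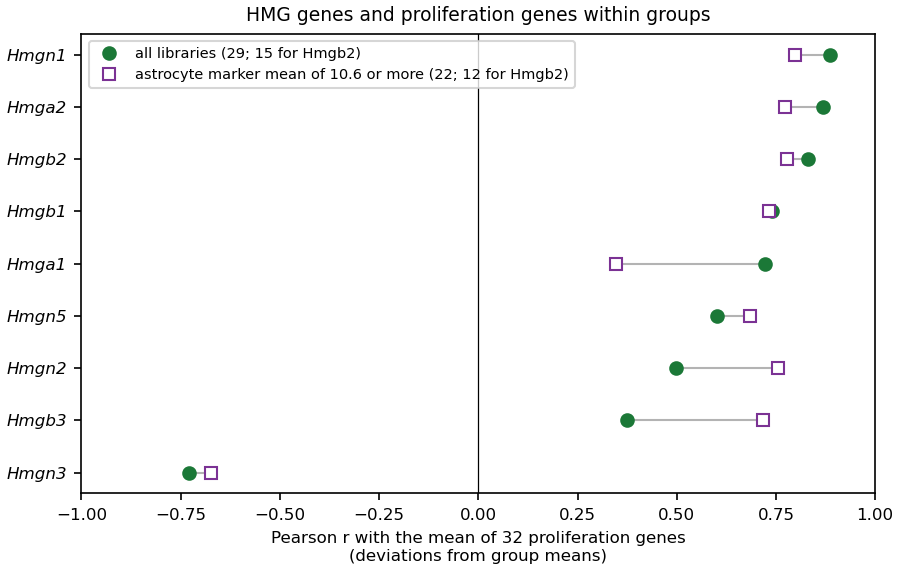
Pearson r of each HMG gene with the mean of 32 proliferation genes after removal of the group means (horizontal axis), in all libraries (circles, 29, or 15 for Hmgb2) and without the 7 libraries low in astrocyte markers (squares, 22, or 12 for Hmgb2). Hmgn1 is highest in all libraries at 0.89, Hmgn3 is negative at -0.73, and Hmga1 is at 0.35 in the 22 libraries against 0.72 in all.

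The genes most like each member were sought among all tested genes by Pearson r after removal of the group means. Endogenous Hmgb2 was most like Pqbp1 (r = 0.96), Mcm7, a subunit of the replicative helicase (0.95), and Rbmx2 (0.93) over 15 libraries. The following are over 29 libraries. Hmgb1 was closest to the ribosomal protein genes Rpl13 and Rpl5 and to the splicing regulator Tra2b (all 0.97). Hmgb3 was closest to Prpsap2 (0.93), Stmn1, which destabilises microtubules (0.91), and Cdk2ap1 (0.87). For Hmgn1 the ribosomal protein genes Rps2 (0.99) and Rplp0 (0.98) and Impdh2, an enzyme of guanine nucleotide synthesis (0.98), came first. Hmgn2 was followed by Ap2m1 (0.95), Pmepa1 (0.94) and the histone deacetylase Hdac1 (0.94). Hmgn3 was nearest to Gyg, the primer of glycogen (0.95), Me1, malic enzyme (0.93), and Amt, an enzyme of glycine cleavage (0.93). Hmgn5 had the loosest neighbours, Tiprl (0.85), Hmgn2 itself (0.84) and the proteasome subunit Psmb5 (0.83). Hmga1 was closest to Tbrg4 (0.96), Gemin5 (0.96) and Samd11 (0.955), and Hmga2 to Wincr1 (0.98), the phosphatase Dusp5 (0.98) and Cct8, a chaperonin subunit (0.97).

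Other genes of HMG biology were counted in the same Neurog2 comparison, in which 15.3% of all genes were called. Of 21 tested genes with an HMG box outside the members, 2 were higher and 4 lower, and the median difference was 0.08. The lower ones included 3 of the TCF factors of Wnt signalling, Tcf7 with -0.76 ± 0.16 (adjusted p = 0.00255), Tcf7l2 with -0.42 ± 0.10 (adjusted p = 0.0061) and Tcf7l1 with -0.39 ± 0.10 (adjusted p = 0.00957). Tox3, an HMG-box factor of neurons, was higher by 0.80 ± 0.20 (adjusted p = 0.00847). Of 9 tested genes for extracellular HMGB partners and receptors, only Cxcr4, which binds the HMGB1-CXCL12 complex, was called, with 1.06 ± 0.13 (adjusted p = 5.56e-06). The part of microglia markers in this was not tested. Cxcr4 averaged 6.20 ± 0.31 with Neurog2+Hmgb2, 5.66 ± 0.61 with Neurog2, 4.84 ± 0.29 with Hmgb2 and 4.50 ± 0.18 with Control in the bFGF culture (SD). Of the SET complex, to which HMGB2 belongs, 1 of 4 tested genes was called, Anp32a with 0.48 ± 0.14 (adjusted p = 0.0238). Of the linker histones, which HMGN proteins compete with, 0 of 7 tested genes were called by limma and 1 had an unadjusted p under 0.05. Among the 32 proliferation genes Mcm7 was the 1 called (0.38 ± 0.12, adjusted p = 0.0307), and 31 were above 0 with a median of 0.18. In the culture comparison over 4 viruses, Tox was the 1 HMG-box gene called, higher in the bFGF culture by 0.78 ± 0.16 (adjusted p = 0.0222).

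Of 5 further rows named as HMG genes, only Hmga2-ps1 passed the filter. Hmga1b was listed at 0 in every library, and Hmgb4, the HMGB protein of testis, had values of -0.05 to 0.48, so that neither was detected at a level that could be compared.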

How the data were processed

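RNA of sorted cells was amplified with an unstranded full-length kit, SMART-Seq v4, and the authors aligned paired-end reads with STAR to mm10, counted reads per gene with HTSeq 0.9.1 and deposited rlog values from DESeq2 (version 1.36.0 in the processing notes), which are on a log2 scale. Reads with several matches are not counted by HTSeq in its default mode, so near-identical copies are uncertain. The depth of each library is unknown from these values. No column was left without a sample.

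All 29 libraries were fitted by group means in limma 3.58.1 (R 4.3.3) with a trend of the variance on the mean. Tests ran on 15719 genes with a mean rlog of at least 1, and 9520 genes were left out. Calls needed a Benjamini-Hochberg adjusted p under 0.05, with any fold. Relations to proliferation genes used 100000 permutations within groups, adjusted over 9 relations, and 10000 for the share over all genes. The scripts were tested on simulated data. Alternatives were other filters and normalizations, only the groups compared, array weights, other variance trends, a replicate block and leaving out each library.

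Named were all 9 members, up to 4 called genes of each of 6 companion lists by smallest p, the 3 genes most like each member, and other HMG rows. Members and lists were chosen with earlier results of these data known. Promoters came from RefSeq (GRCm38.p6) and gene positions from GENCODE M21 on GRCm38. Python 3.11.15, scipy 1.17.1, numpy 2.4.6 and matplotlib 3.10.9 were used.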

Additional observations from a re-analysis of the deposited data

Results flagged for a closer look

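In groups of 4 or 5 libraries, 40 combinations of gene and group were checked for a library far from the others, and 7 had one, where chance gives about 1 in 20. In the EGF+bFGF culture, Hmgb2 replicate 2 was highest for Hmga1 (5.48, the next library 3.74, gap over range 0.869) and for Hmga2 (11.15, the next 8.32, gap over range 0.849). It is 1 of the 7 libraries low in astrocyte markers.

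In the bFGF culture, Neurog2 replicate 3 was lowest for Hmgb1 (9.89, the next 10.97, gap over range 0.922) and for Hmgn5 (5.90, the next 6.75, gap over range 0.893). In the same culture Hmgb2 replicate 3 was lowest for Hmgn5 (5.24, the next 6.07, gap over range 0.846). EGF+bFGF Control replicate 4 was lowest for Hmgb1 (9.85, the next 10.57, gap over range 0.739) and for endogenous Hmgb2 (9.57, the next 10.10, gap over range 0.734).

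Neurog2 was higher in the libraries labelled Hmgb2 than in Control libraries by 2.43 on the log2 scale. These libraries are part of the comparisons of HMG genes that use the Hmgb2 groups, among them the side without the Neurog2 virus. Of 36 interaction terms over the 9 members, none was called.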

How the results depend on the processing

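The depth of the libraries is unknown and groups hold 3 to 5 libraries, so an uncalled difference is not shown to be absent. For members other than Hmgb2 and apart from leaving out single libraries, 1276 values kept their direction and side of the threshold under the alternatives, 28 gained a call, 1 lost it and 55 changed sign. Centring or quantile normalization moved the median of all genes by less than 0.1.

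Endogenous and viral Hmgb2 together differed between EGF+bFGF Neurog2+Hmgb2 and Neurog2 libraries by 1.84 and lost the call with quantile normalization (1.93, adjusted p = 0.136), with only the groups compared (1.84, 0.801), with the replicate block (1.84, 0.111) and with the block within each culture (1.84, 0.219). Leaving out 1 library gave 1.42 to 2.22. The bFGF difference of Hmgb2 lost its call with only the groups compared (2.15, 0.376). With array weights Hmgb2 gained calls for EGF+bFGF Neurog2 against Control (0.51, 0.045) and for culture (-0.47, 0.00555). Without the 7 libraries low in astrocyte markers the culture difference of Hmgb2 was -0.46 (0.0423). Both culture differences include reads of the Hmgb2 virus. With only the groups lacking the Hmgb2 virus, the Neurog2 difference of Hmgb2 was 0.63 (0.0589).

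Counts of the other 8 members called are given with the share of all tested genes called in the same setting. Array weights called 4 members (18% of all genes) for EGF+bFGF Neurog2, 1 (4.49%) for bFGF Neurog2, 2 (12.4%) for EGF+bFGF Neurog2+Hmgb2, 1 (17.9%) for bFGF Neurog2+Hmgb2, 1 (19.4%) for culture and 7 (38.5%) for Neurog2 over all groups. The weights did not fully converge. Leaving out 1 library gave 0 to 1 for EGF+bFGF Neurog2 (0.611% to 1.54% of all genes) and 2 to 4 for Neurog2 over all groups (11.8% to 17.6% of all genes). Without the 7 libraries these counts were 1 for EGF+bFGF Neurog2+Hmgb2 (Hmgn3, -0.58, adjusted p = 0.0221, 4.71% of all genes), 1 for culture (7.23%) and 5 for Neurog2 over all groups (21.6%), and with only the groups lacking the Hmgb2 virus 1 (4.17%).

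Replicate numbers were not taken to pair the libraries, since the labels tie them to no shared source, 9 of 29 libraries correlated best with one of their own number and not every pair exceeded 0.1. For 2 sets, EGF+bFGF replicate 2 and bFGF replicate 3, all 6 pairs did, with mean r = 0.49 in each. The replicate block called 3 members other than Hmgb2 with Neurog2 over all groups (16.8% of all genes). The block within each culture called 5 there (17.1%), where Hmga1 (-0.78, adjusted p = 0.0309), Hmga2 (-1.28, 0.0421) and Hmgb1 (0.48, 0.0465) joined Hmgb3 and Hmgn5. It called 2 for EGF+bFGF Neurog2 (Hmga1 and Hmga2, 3.06% of all genes) and 2 for bFGF Neurog2+Hmgb2 (Hmgb3 and Hmgn5, 2.65%). The block within cultures was not run for the culture comparisons, with which it is aliased.

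Some uncalled differences changed sign under an alternative, in 199 of 3575 member values, none of them called in either setting, and the cause was not tested. Centring on the library medians gave Hmgn1 -0.0102 (Neurog2 virus over all groups). Quantile normalization gave Hmgn1 0.0541 (EGF+bFGF Neurog2+Hmgb2 against Control), Hmgn5 0.0002 (Hmgb2 virus over all groups), Hmgn5 0.0103 (Neurog2 response between cultures) and Hmgn3 -0.0241 (interaction of the viruses). Array weights gave Hmgn1 0.0017 (EGF+bFGF Neurog2 against Control), Hmga2 -0.81 (bFGF Neurog2+Hmgb2 against Control), Hmgn3 -0.13 (EGF+bFGF Hmgb2 against Control) and Hmgn1 -0.0241 (EGF+bFGF Neurog2+Hmgb2 against Neurog2). They also gave Hmga1 -0.22, Hmgb1 -0.10, Hmgb3 -0.14, Hmgn1 -0.12, Hmgn2 -0.0728 (bFGF Neurog2+Hmgb2 against Neurog2), Hmgb1 -0.11, Hmgn1 -0.0017 (Hmgb2 virus over all groups), Hmga1 -0.58, Hmga2 -0.045 (Neurog2+Hmgb2 response between cultures) and Hmgb1 -0.22, Hmgb2 0.13, Hmgb3 -0.13, Hmgn1 -0.14, Hmgn5 -0.28 (interaction of the viruses). The replicate block gave Hmgn3 0.0532 (EGF+bFGF Neurog2 against Control), Hmgn1 -0.025 (Neurog2 virus over all groups), Hmgb3 -0.0638, Hmgn2 -0.13 (Neurog2 response between cultures) and Hmgn2 0.0104 (interaction of the viruses). The block within each culture gave Hmgn3 0.0758 (EGF+bFGF Neurog2 against Control), Hmgb3 -0.0024 (bFGF Hmgb2 against Control), Hmgn1 -0.0404 (Neurog2 virus over all groups), Hmgb3 -0.0638, Hmgn2 -0.13 (Neurog2 response between cultures) and Hmgn2 0.0852 (interaction of the viruses). Without the 7 libraries the values were Hmgn1 0.0155 (EGF+bFGF Neurog2 against Control), Hmga2 -0.77 (bFGF Neurog2+Hmgb2 against Control), Hmgn3 -0.15, Hmgn5 0.0192 (EGF+bFGF Hmgb2 against Control), Hmgn5 -0.0112 (bFGF Hmgb2 against Control), Hmgn1 -0.0211 (EGF+bFGF Neurog2+Hmgb2 against Neurog2), Hmga1 -0.24 (bFGF Neurog2+Hmgb2 against Neurog2) and Hmga1 0.0218 (culture in Control). In the remaining comparisons they were Hmga1 0.0734, Hmgb1 0.0751, Hmgn1 0.0275 (culture), Hmga1 -0.0227, Hmgb1 -0.0642 (Hmgb2 virus over all groups), Hmgb2 -0.0494, Hmgn3 0.21 (Neurog2 response between cultures), Hmga1 -0.38 (Neurog2+Hmgb2 response between cultures), Hmgn3 0.0275, Hmgn5 -0.0304 (Hmgb2 response between cultures) and Hmgb1 -0.014, Hmgn1 -0.0313, Hmgn2 0.17, Hmgn5 -0.0087 (interaction of the viruses). The groups lacking the Hmgb2 virus gave Hmgn1 -0.0462 (Neurog2 virus over all groups).

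Leaving out 1 library changed the sign of 39 uncalled differences in at least 1 case. The Hmgb2 virus over all groups ranged from -0.14 to 0.0476 for Hmgn2, -0.0459 to 0.14 for Hmgb1 and -0.11 to 0.0491 for Hmgn5. The interaction of the viruses ranged from -0.086 to 0.0943 for Hmgn3, -0.16 to 0.16 for Hmgn5, -0.28 to 0.0837 for Hmgn2, -0.0723 to 0.30 for Hmgb1, -0.0792 to 0.17 for Hmgb3 and -0.40 to 0.0022 for Hmgb2. EGF+bFGF Neurog2+Hmgb2 against Control ranged from -0.26 to 0.12 for Hmgn1, -0.20 to 0.40 for Hmgn2, -0.0986 to 0.61 for Hmgb1 and -0.0111 to 0.36 for Hmgb3. EGF+bFGF Hmgb2 against Control ranged from -1.10 to 0.0666 for Hmga2 and -0.18 to 0.18 for Hmgn3. EGF+bFGF Neurog2 against Control ranged from -0.27 to 0.0122 for Hmgn3. The Neurog2 virus over all groups ranged from -0.0402 to 0.064 for Hmgn1. The Hmgb2 response between cultures ranged from -0.20 to 0.11 for Hmgb2. EGF+bFGF Neurog2+Hmgb2 against Neurog2 ranged from -0.0211 to 0.36 for Hmgn1, -0.41 to 0.34 for Hmgb1 and -0.62 to 0.0237 for Hmgn5. The Neurog2 response between cultures ranged from -0.0187 to 0.42 for Hmgb3, -0.32 to 0.53 for Hmgn2 and -0.41 to 0.18 for Hmgn5. The culture comparison ranged from -0.13 to 0.0499 for Hmgb1, -0.29 to 0.0207 for Hmga1 and -0.0867 to 0.0184 for Hmgn1. bFGF Hmgb2 against Control ranged from -0.0376 to 0.32 for Hmgn5, -0.0919 to 1.15 for Hmga2 and -0.0228 to 0.53 for Hmgn2. bFGF Neurog2+Hmgb2 against Control ranged from -0.77 to 0.98 for Hmga2 and -0.83 to 0.31 for Hmga1. bFGF Neurog2+Hmgb2 against Neurog2 ranged from -0.37 to 0.77 for Hmga1, -0.0774 to 0.28 for Hmgn1, -0.0498 to 0.45 for Hmgb3, -0.0409 to 0.35 for Hmgb1 and -0.13 to 0.43 for Hmgn2. The Neurog2+Hmgb2 response between cultures ranged from -0.25 to 1.00 for Hmga1 and -0.0201 to 2.26 for Hmga2. 

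The relation to proliferation genes moved to r = 0.347 for Hmga1, 0.717 for Hmgb3 and 0.754 for Hmgn2 in the 22 libraries, and to rho = 0.378 for Hmgn2.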
